A study of Mus musculus with 18 samples.

Results

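The genes described here are 41 interferon response genes, chosen by symbol from a list of known interferon-induced genes and matched to the Ensembl identifiers of the deposited counts. All 41 were found among the 47729 gene identifiers of the tables, and all 41 passed the filter on low counts that left 15572 genes. They fall into 5 roles: 7 genes of signalling and transcription, 4 sensors of nucleic acid, 22 antiviral effectors, 5 GTPases and 3 genes of antigen processing. RNA came from epithelial cells sorted by flow cytometry from the ileum, the last stretch of the mouse small intestine. The 18 bulk libraries of polyadenylated RNA were 6 from females on day 7 of lactation, 6 from virgin females and 6 from virgin males of matching age; the first are also called dams, and males here are always virgin. No allele or drug separates the groups, and the sources used here name no strain, age in weeks or sorting gate. The labels name a breeding diet (RM3) and a diet for maintenance and experiment (RM1) without saying which the lactating dams ate, so lactation and diet cannot be told apart. The labels do not state that each library is a separate animal, so p-values cover only the spread among samples, which may be technical in part.

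Interferons are secreted proteins that bind receptors on neighbouring cells and switch on a set of defence genes through JAK kinases and STAT transcription factors. Type I interferons and the type III (lambda) interferons, the latter acting mainly on epithelia, lead to a complex that contains STAT2 and IRF9 and binds the interferon-stimulated response element (ISRE). Type II interferon (interferon gamma), made by T cells and natural killer cells, acts mainly at the gamma-activated site (GAS). In the intestine a low resting level of these genes in the epithelium is part of defence against enteric viruses.

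The promoters of the members carry the letters of these elements in part. RefSeq promoter windows, from 250 bases before to 50 bases after the gene start on GRCm38.p6, were on hand for 30 of the 41 members. ISRE was searched as GAAA, NN and GAAA in direct succession (N is any base) on both strands, and GAS as TTCNNNGAA, which reads the same on both strands. ISRE letters were found in 15 of the 30 members (50%) and in 1079 of all 27025 genes with a window (3.99%). GAS letters were found in 9 of the 30 members (30%) and in 2582 of the 27025 genes (9.55%). Both were present in 4 members and neither in 10. All 5 GTPases held ISRE letters, and 2 of them, Igtp and Gbp7, held GAS letters as well, whereas 0 of the 3 antigen processing genes held ISRE letters and 1, Psmb8, held GAS letters. A match is a run of letters and does not show binding. The stretches below, on the strand of each gene and with matches in capitals, were picked after the values were seen, as examples of the layouts found: ISRE letters alone, both elements, and GAS letters alone.
Isg15, chr4:156200855-156200916, minus strand: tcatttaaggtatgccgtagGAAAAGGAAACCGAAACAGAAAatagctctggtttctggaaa
Ifit1, chr19:34640765-34640833, plus strand: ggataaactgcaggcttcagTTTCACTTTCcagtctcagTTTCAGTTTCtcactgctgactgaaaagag
Oas3, chr5:120777705-120777754, minus strand: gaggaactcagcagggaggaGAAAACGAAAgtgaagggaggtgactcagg
Rsad2, chr12:26456543-26456592, minus strand: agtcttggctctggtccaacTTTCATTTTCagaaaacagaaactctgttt
Stat2, chr10:128270256-128270305, plus strand: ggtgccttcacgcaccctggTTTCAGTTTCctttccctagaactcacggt
Gbp2, chr3:142620584-142620633, plus strand: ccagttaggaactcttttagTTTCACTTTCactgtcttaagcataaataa
Gbp7, chr3:142530210-142530312, plus strand: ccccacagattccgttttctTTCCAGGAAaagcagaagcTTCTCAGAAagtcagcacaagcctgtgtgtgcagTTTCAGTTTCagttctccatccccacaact
Igtp, chr11:58199491-58199551, plus strand: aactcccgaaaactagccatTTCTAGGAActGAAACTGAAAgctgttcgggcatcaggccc
Irf1, chr11:53769904-53769952, plus strand: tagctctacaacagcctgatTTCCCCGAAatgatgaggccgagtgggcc
Psmb8, chr17:34198078-34198126, plus strand: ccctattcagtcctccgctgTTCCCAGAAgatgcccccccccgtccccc
In Isg15, 3 overlapping ISRE matches run together as 1 block. Ifit1 has 2 separate ISRE matches. Gbp7 has 2 GAS matches upstream of 1 ISRE match, and in Igtp a GAS match lies 2 bases before an ISRE match. Irf1 and Psmb8 show GAS letters without ISRE letters in the window.

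Library totals ran from 34577104 to 49039300 counts, with similar ranges in the 3 groups. All 10 epithelial markers were abundant in every library, from 110 CPM (counts scaled to library size, with the TMM factors of edgeR) for Cdx1 in its lowest library to 20600 CPM for Fabp2 in its highest. Of the myeloid and dendritic markers, Cd68 (0.642 to 2.25 CPM) and Csf1r (0.104 to 1.26 CPM) were above 3 counts in all 18 libraries, while Siglech, of plasmacytoid dendritic cells, was at 0 counts in all 18. Of the endothelial ones, Pecam1 was 0.102 to 0.491 CPM and above 3 counts in all 18, and Cdh5 was at 0 counts in 17. The plasma cell marker Jchain reached 2.28 CPM. The 10 T cell markers summed to 0.586 to 7.10 CPM per library. Virgin female 2 and virgin male 6 stood apart, with 31000 and 30000 CPM of Gm42418, a transcript that overlaps ribosomal RNA genes, and Xist was 5.85 CPM in virgin male 6. The counts and medians of the 3 comparisons are given with and without these libraries. In bulk RNA, fewer cells of a type and less RNA per cell cannot be told apart.

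As a group the interferon response genes stood lowest in virgin males. The mean over 6 libraries was lowest in virgin males for 40 of the 41 genes, and it was highest in lactating females for 28 and in virgin females for 13. Shares of all genes with these orders of means were not computed. The mean log2 CPM over the 41 genes was 4.75 ± 0.495 in dams, 4.55 ± 0.772 in virgin females and 4.01 ± 0.501 in males (SD, n = 6 each). The ranges were 3.88 to 5.27, 3.50 to 5.54 and 3.19 to 4.55, so the groups overlapped. For each of the 41 genes the libraries of both groups overlapped in all 3 comparisons. Of all genes, 0.289% did not overlap between lactating and virgin females, 0.43% between males and virgin females and 1.34% between lactating females and males.

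By edgeR, no member passed the test over all genes in any of the 3 comparisons, while DESeq2 called 6 between lactating females and males. Lactating against virgin females, 0 of 41 were called at an adjusted p under 0.05 by edgeR's quasi-likelihood test, where 0.0578% of all 15572 genes were called. The lowest adjusted p was 0.647, and DESeq2 called 0, beside 0.445% of all genes. For 2 genes, Oas2 and Mx1, the level in lactating females was higher at an unadjusted p under 0.05, beside 3.4% of all genes with that direction. The median log2 fold change of the 41 was 0.17 (range -1.40 to 1.03), against 0 for all genes, and 28 were above 0, beside 49.4% of all genes. Without virgin female 2 and virgin male 6, edgeR and DESeq2 called 0 and the median was 0.09. The median was 0.02 without virgin female 4, 0.36 without virgin female 1, -0.02 with a T cell marker score as a covariate and -0.01 with a villus tip score as a covariate.

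Virgin males against virgin females, all 41 log2 fold changes were below 0, with a median of -0.64 (range -1.39 to -0.08), where 52% of all genes were below 0 and their median was -0.01. edgeR called 0 of 41, beside 0.0835% of all genes, and DESeq2 called 0, beside 0.193%. The lowest adjusted p was 0.565. An unadjusted p under 0.05 with the lower level in males was found for 13, beside 6.02% of all genes. The 41 genes were read from the same libraries and are not independent, so these counts are not 41 separate observations. For 23 of the 41 genes, 0 of the 6 male libraries were above the virgin female mean. That mean includes virgin female 1, the highest of its group for 36 of the 41, and the share over all genes was not computed. Without virgin female 2 and virgin male 6, edgeR and DESeq2 called 0 and the median was -0.57. The median was -0.38 without virgin female 1, -0.19 with a cell cycle score as a covariate and -0.31 with the T cell marker score.

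Lactating females against virgin males, 40 of 41 log2 fold changes were above 0, with a median of 0.71 (range -0.01 to 1.78), where 48.9% of all genes were above 0 and their median was -0.01. edgeR called 0 of 41, beside 0.764% of all genes. DESeq2 called 6, namely Oas2, Usp18, Gbp7, Xaf1, Irf7 and Rsad2, beside 2.64% of the 15515 genes for which it gave an adjusted p. An unadjusted p under 0.05 with the higher level in lactating females was found for 25, beside 10.5% of all genes. By role these were 5 of 7 signalling genes, 3 of 4 sensors, 16 of 22 antiviral effectors, 1 of 5 GTPases and 0 of 3 antigen processing genes. Without virgin female 2 and virgin male 6, edgeR called 0, DESeq2 called 1 (Oas2, adjusted p = 0.019) and the median was 0.62. The median was 0.38 with the T cell marker score as a covariate and 0.46 with the villus tip score. The comparisons share groups and the genes share libraries, so neither the comparisons nor the genes are independent of each other.

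**Figure D1:**
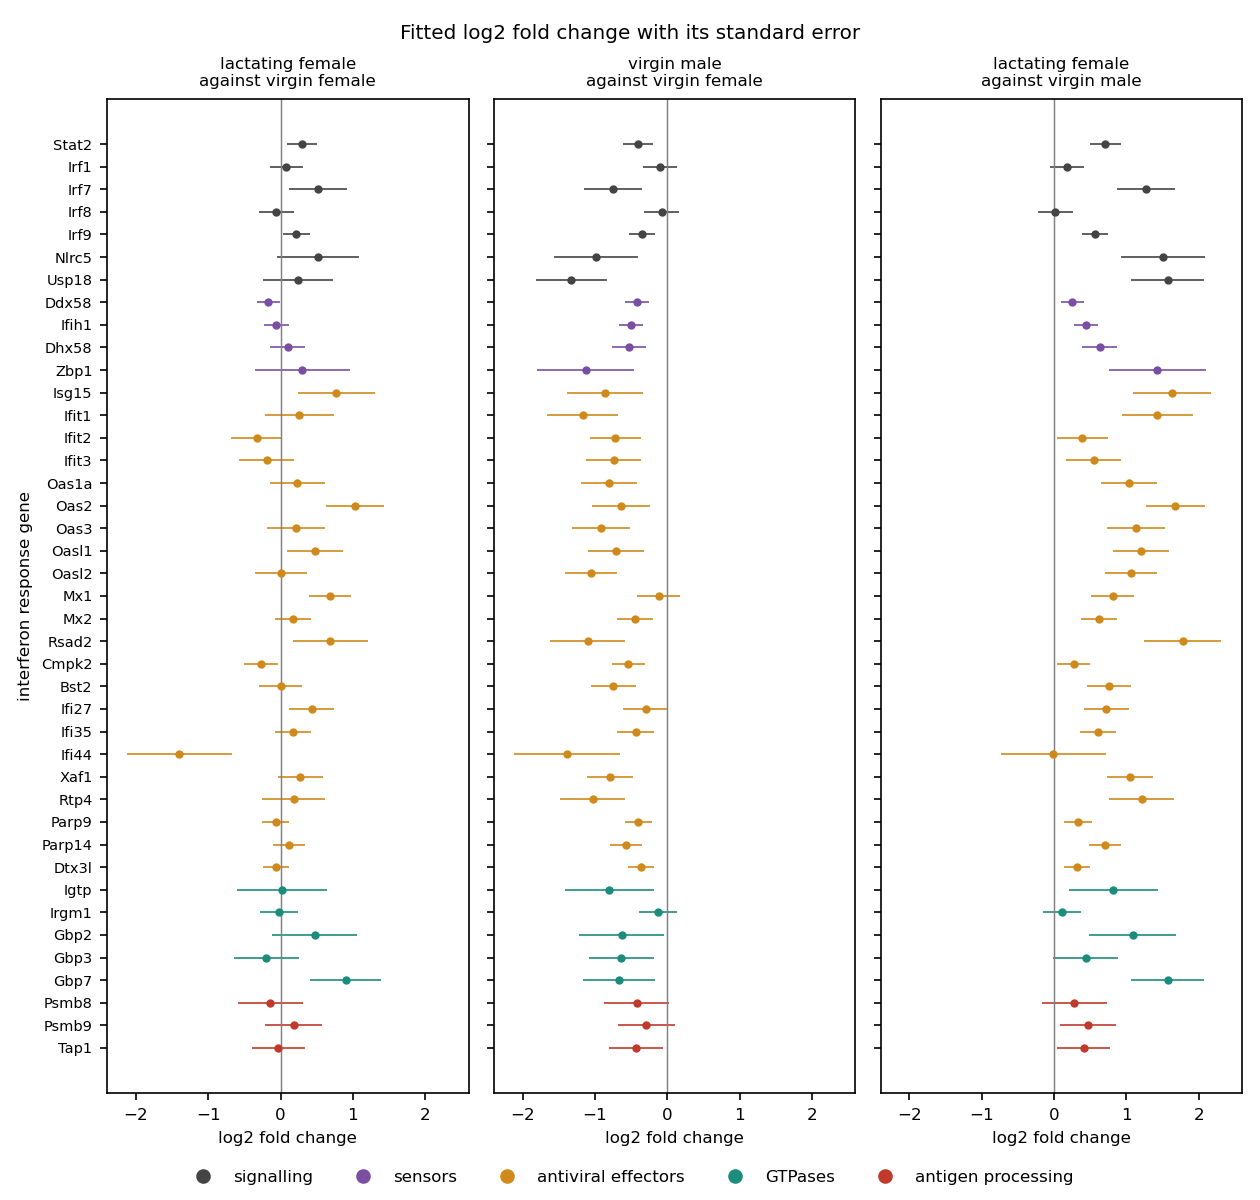
Fitted log2 fold change (points) and its standard error (bars) of each of the 41 genes in the 3 comparisons, coloured by role; the vertical line marks 0. In virgin males against virgin females every point lies left of 0, and in lactating females against virgin males every point but Ifi44, at -0.01, lies right of it.

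Among the signalling genes, Irf7, the factor that amplifies interferon production, was 96.5 to 364 CPM in dams (median 239), 53.2 to 284 in virgin females (median 144) and 50.7 to 173 in males (median 84.1). All 6 lactating libraries were above the male mean of 92.4 CPM, yet virgin male 5, at 173 CPM, was above lactating females 2 and 3. The log2 fold change of lactating females over males was 1.27 (SE 0.40, edgeR adjusted p = 0.165, DESeq2 adjusted p = 0.0422). Stat2, a subunit of the ISRE-binding complex, was 45.6 to 102 CPM in dams (median 85.6), 39.5 to 87.0 in virgin females (median 65.3) and 33.8 to 71.9 in males (median 44.7). Lactating female 2 was the only lactating library below the male mean of 48.4 CPM. Stat2 differed by 0.71 between lactating females and males (SE 0.21, edgeR adjusted p = 0.147), and without lactating female 2 by 0.83 with an adjusted p of 0.0416.

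Irf9, the DNA-binding subunit of the same complex, was 32.5 to 59.1 CPM in dams (median 43.9), 25.7 to 49.7 in virgin females (median 37.6) and 23.8 to 42.1 in males (median 28.0). Usp18, which removes ISG15 from proteins and restrains the type I receptor, was 3.25 to 14.2 CPM in dams (median 8.80), 1.39 to 17.9 in virgin females (median 5.52) and 1.06 to 5.38 in males (median 2.69). Every lactating library was above the male mean of Usp18 (2.85 CPM) and 0 of 6 male libraries were above the virgin female mean. Its log2 fold change was 1.57 for lactating females over males (SE 0.50, edgeR adjusted p = 0.163, DESeq2 adjusted p = 0.0352) and -1.33 for males over virgin females (SE 0.49, edgeR adjusted p = 0.565).

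The other signalling genes spanned a wide range. Irf1, an early factor induced by interferon gamma, was near 222 CPM on average and differed little between groups, at 235 ± 76.2, 222 ± 60.0 and 208 ± 62.1 CPM in lactating females, virgin females and males (SD, n = 6 each). Irf8, a factor best known in myeloid and B cells, was 141 ± 53.9, 147 ± 50.5 and 140 ± 32.6 CPM. Of the myeloid markers, Cd68 reached 2.25 CPM, Csf1r 1.26 CPM and Itgax 0.115 CPM, and of the B and plasma cell markers Cd79b reached 0.75 CPM and Jchain 2.28 CPM. Nlrc5, the transactivator of MHC class I genes, ran from 1.35 CPM in virgin male 6 to 22.3 CPM in lactating female 3, a ratio of 16.6.

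The 3 RNA helicase sensors had ratios of highest to lowest library of 2.31, 2.23 and 3.48, under the median of 5.76 over the 41 genes. Ifih1 (MDA5), which detects long double-stranded RNA, was 71.7 to 124 CPM in dams (median 93.7), 63.7 to 121 in virgin females (median 111) and 53.8 to 81.5 in males (median 73.9). Its log2 fold change in males over virgin females was -0.50 (SE 0.17, edgeR adjusted p = 0.565), and 0 of 6 male libraries were above the virgin female mean. Ddx58 (RIG-I), a sensor of RNA ends, was 48.1 to 71.9 CPM in dams, 45.5 to 85.9 in virgin females and 38.6 to 58.2 in males. The ratio of 2.23 for Ddx58 was the lowest of the 41. Dhx58 (LGP2), which tunes the other helicases, was 6.65 to 10.1 CPM in dams, 3.99 to 13.9 in virgin females and 4.19 to 7.48 in males.

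Zbp1, a sensor of Z-form nucleic acid that can start necroptosis, had a ratio of highest to lowest library of 17.0. It was 9.47, 6.79, 87.9, 17.3, 68.4 and 110 CPM in lactating females 1 to 6. In virgin females it was 98.6, 15.9, 46.0, 7.70, 57.7 and 18.3 CPM, and in virgin males 17.9, 17.8, 35.7, 12.6, 20.9 and 6.49 CPM. Lactating females 3, 5 and 6 and virgin females 1, 3 and 5 were above every male library, while the other female libraries lay within the male range.

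Oas2, an enzyme that makes the 2-5A signal which activates RNase L, had the lowest adjusted p of the 41 genes. It was 5.5, 3.47, 1.60, 5.80, 5.27 and 6.78 CPM in lactating females 1 to 6. In virgin females it was 3.13, 1.85, 3.14, 0.841, 3.43 and 1.49 CPM, and in virgin males 1.62, 0.868, 1.61, 0.828, 3.16 and 0.802 CPM. Lactating libraries other than number 3 exceeded every virgin library, and lactating female 3 lay among the virgin ones. The log2 fold change was 1.68 for lactating females over males (SE 0.41, edgeR adjusted p = 0.0649, DESeq2 adjusted p = 0.00315) and 1.03 over virgin females (SE 0.40, edgeR adjusted p = 0.647). The edgeR adjusted p against males was 0.0418 without lactating female 2, 0.0211 without lactating female 3, 0.0407 without virgin female 4 and 0.0197 without virgin male 5. It was also 0.0475 without the filter on low counts. The other 14 of 18 fits that left out 1 library gave no call of Oas2, with an adjusted p of up to 0.16, and without virgin female 2 and virgin male 6 the adjusted p was 0.174.

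Rsad2 (viperin), an enzyme that makes a chain-terminating nucleotide, had the largest fitted difference between lactating females and males. Its levels were 24.6, 7.56, 4.81, 14.5, 25.5 and 18.6 CPM in dams, 18.9, 11.0, 8.14, 2.12, 16.1 and 3.22 in virgin females and 3.99, 3.53, 3.87, 3.04, 11.4 and 1.91 in males. Every lactating library was above the male mean of 4.62 CPM, while virgin male 5 was above lactating females 2 and 3. The log2 fold change was 1.78 (SE 0.53, edgeR adjusted p = 0.142, DESeq2 adjusted p = 0.045). Xaf1, a promoter of apoptosis, was 7.48 to 20.1 CPM in dams (median 14.3), 4.85 to 20.5 in virgin females (median 10.9) and 4.06 to 9.68 in males (median 6.45). The log2 fold change of lactating females over males was 1.05 for Xaf1 (SE 0.32, edgeR adjusted p = 0.147, DESeq2 adjusted p = 0.0396).

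Isg15, a ubiquitin-like protein attached to viral and host proteins, was 13.8 to 86.1 CPM in dams (median 38.3), 4.99 to 49.4 in virgin females (median 21.2) and 4.32 to 28.1 in males (median 12.0). Ifit1, which binds viral RNA that lacks a host cap mark, was 27.7 to 155 CPM, 16.9 to 115 CPM and 8.51 to 45.6 CPM in the same groups. All 6 lactating libraries were above the male mean for both genes. Mx1, a dynamin-like GTPase that blocks viral replication, had a log2 fold change of 0.68 in lactating over virgin females (SE 0.29, edgeR adjusted p = 0.73). In males its libraries were 3.52, 3.53, 3.67, 3.58, 8.74 and 3.52 CPM, so virgin male 5 stood alone. Ifi44 went the other way from most members, at 14.2, 0.471, 5.79, 0.585, 6.31 and 1.45 CPM in virgin females, while the 6 lactating libraries ran from 0.347 to 3.90 CPM and the 6 male libraries from 0.285 to 4.26 CPM. Its log2 fold change in lactating over virgin females, -1.40 (SE 0.73, edgeR adjusted p = 0.804), was the lowest of the 41.

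**Figure D2:**
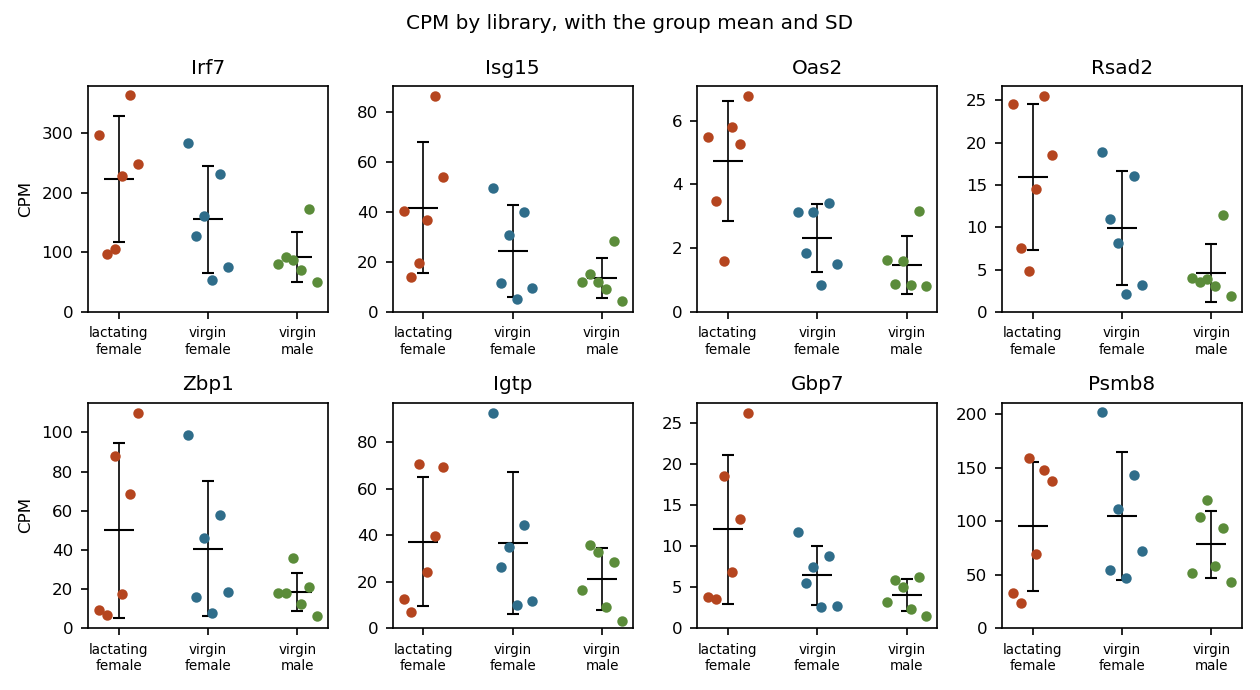
CPM of 8 of the genes in each library (points), with the mean (long bar) and SD (error bar) of each group of 6. For Irf7, Isg15, Oas2 and Rsad2 a single male library, virgin male 5, lies well above the other 5. For Zbp1, Igtp, Gbp7 and Psmb8 the lactating libraries spread widely, with numbers 3, 5 and 6 above numbers 1, 2 and 4.

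The GTPases attack the vacuoles of intracellular pathogens. The widest ratio of highest to lowest library within a group was 24.2 for Gbp2, 11.2 for Igtp, 7.38 for Gbp7, 4.54 for Gbp3 and 3.44 for Irgm1, beside a median of 4.89 over the 41 genes. Gbp7 was 3.84, 3.55, 18.5, 6.89, 13.3 and 26.2 CPM in dams, 11.7, 5.56, 7.42, 2.6, 8.76 and 2.70 in virgin females and 3.20, 5.90, 5.01, 2.36, 6.24 and 1.5 in males. Lactating females 3, 5 and 6 were above every virgin library, and lactating females 1 and 2 were below the male mean of 4.04 CPM. The log2 fold change of lactating females over males was 1.57 for Gbp7 (SE 0.50, edgeR adjusted p = 0.17, DESeq2 adjusted p = 0.0385). Gbp2 ran from 0.675 CPM in lactating female 2 to 16.3 CPM in lactating female 6, a ratio of 24.2 within 1 group. Gbp3, the lowest member per length, had medians of 0.957, 1.22 and 0.964 CPM in lactating females, virgin females and males.

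Igtp (Irgm3) and Irgm1 belong to the immunity-related GTPases, of which the latter regulates the others. Igtp was 12.8, 6.87, 70.6, 24.2, 39.7 and 69.2 CPM in lactating females and 92.6, 26.3, 35, 10.2, 44.5 and 11.8 in virgin females. In virgin males it was 16.5, 35.9, 32.7, 9.28, 28.7 and 3.21 CPM. The annotated span of Igtp shares 7974 bases on the same strand with Irgm2, so its counts are uncertain. Irgm1 was 40.7 ± 16.7, 41.2 ± 10.8 and 37.7 ± 11.7 CPM in lactating females, virgin females and males (SD, n = 6 each).

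The antigen processing genes encode the immunoproteasome subunits Psmb8 and Psmb9, which cut proteins into peptides for MHC class I, and Tap1, which helps move those peptides into the endoplasmic reticulum. Psmb8 was 24.0 to 159 CPM in dams (median 104), 47.4 to 202 in virgin females (median 91.6) and 43.1 to 120 in males (median 75.9). Tap1 had medians of 106, 98.6 and 88.3 CPM and Psmb9 medians of 54.3, 41.7 and 37.5 CPM in these groups. The lowest level of Psmb8, Psmb9 and Tap1 over all 18 libraries was in lactating female 2 and the highest in virgin female 1. With the T cell marker score as a covariate, the log2 difference between lactating females and males turned from 0.28 to -0.62 for Psmb8, from 0.47 to -0.26 for Psmb9 and from 0.41 to -0.26 for Tap1. It turned likewise from 1.09 to -0.42 for Gbp2, from 0.44 to -0.10 for Gbp3, from 0.82 to -0.40 for Igtp and from 1.43 to -0.25 for Zbp1. In the same comparison Gbp7, Oas2, Rsad2, Xaf1, Stat2, Irf9 and Usp18 kept their sign under all 28 alternatives, this covariate included. None of the differences that changed sign was called with or without the covariate, and the cause of the changes was not tested. Psmb9 and Tap1 lie head to head on chromosome 17 and their annotated spans share 212 bases.

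Libraries differed widely for some members, within groups and across them. Within a group, the ratio of the highest to the lowest library had a median over the 41 genes of 3.16 in dams, 4.41 in virgin females and 2.55 in males. In at least 1 group it reached 10 for 5 members, Ifi44 (30.1), Gbp2 (24.2), Zbp1 (16.2), Usp18 (12.9) and Igtp (11.2). Across all groups, the ratio of the highest to the lowest of the 18 libraries ran from 2.23 to 49.7 and 10 members reached at least 10. The widest across groups were Ifi44 (49.7), Igtp (28.9), Gbp2 (24.2), Isg15 (19.9) and Ifit1 (18.2). Virgin female 1 was the highest of its group for 36 of the 41 genes and of all libraries for 21. Virgin male 6 was the lowest of its group for 40 and of all libraries for 27, virgin female 4 the lowest of its group for 31 and lactating female 2 for 29. Shares of all genes highest or lowest in these libraries were not computed.

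**Figure D3:**
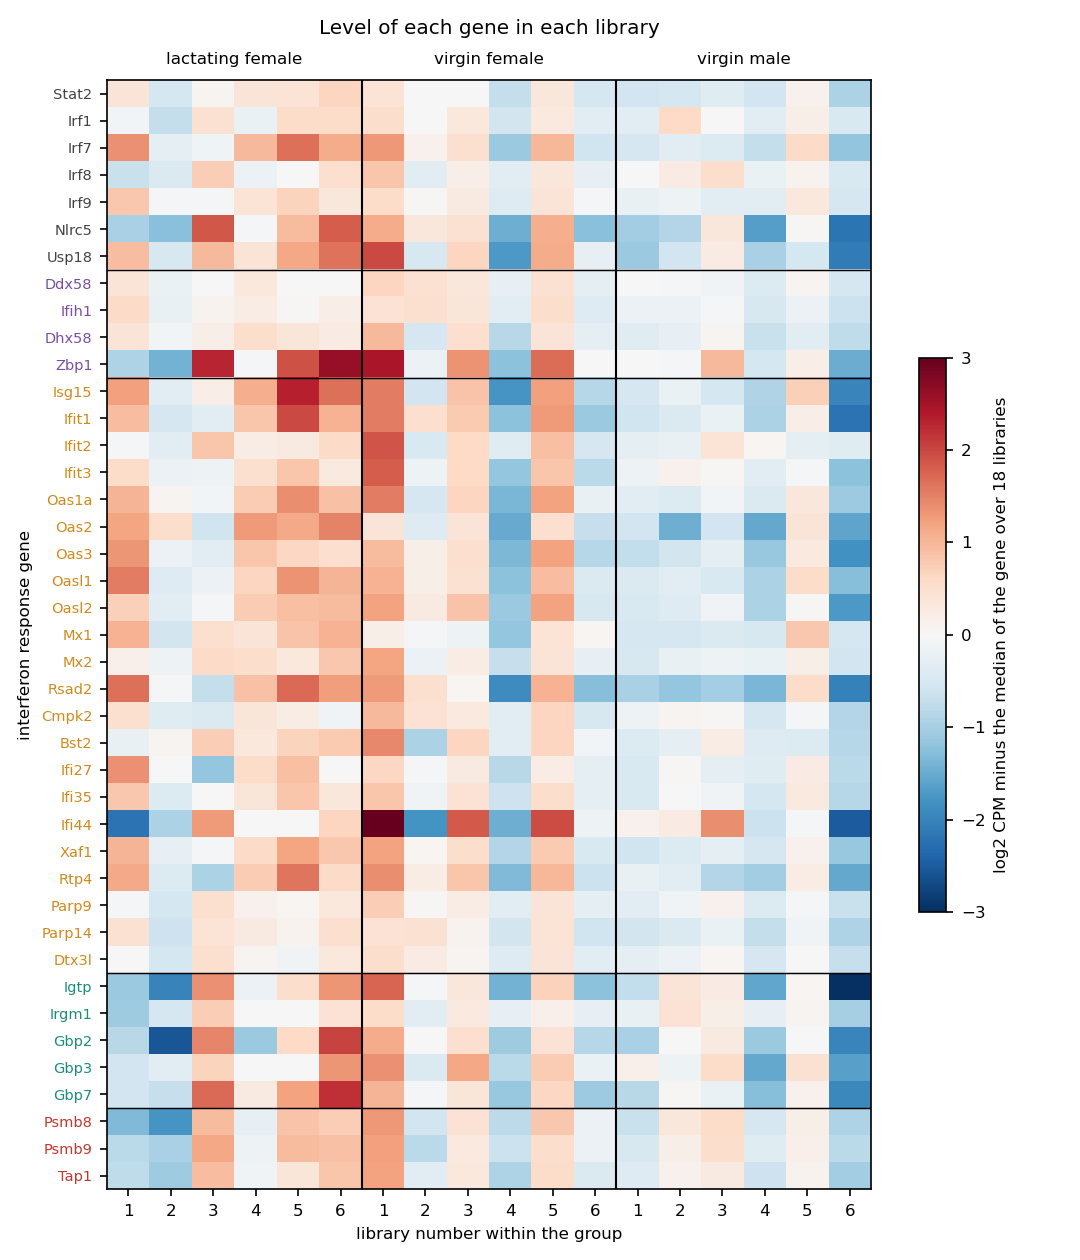
Level of the 41 genes (rows, by role) in the 18 libraries (columns), as log2 CPM minus the median of that gene over all libraries; colours stop at -3 and 3. Virgin female 1 is high and virgin male 6 low nearly throughout. In lactating female 1 most antiviral effectors are high, though not Ifi44 or Bst2, while Zbp1, the GTPases and the antigen processing genes are low.

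Some libraries were high or low for every role. Virgin female 1 had the highest and virgin female 4 the lowest mean log2 CPM of its group for all 5 roles, and virgin male 6 the lowest of its group for all 5. Other libraries divided the roles. Between lactating females 1 and 3, which were compared after their values were seen, 22 genes were higher in number 1 and 19 in number 3. Higher in number 1 were 16 of 22 antiviral effectors, among them Ifi27, a mitochondrial protein that was 55.2 against 9.58 CPM (log2 ratio 2.53), and Rsad2 (log2 ratio 2.35). Lower were all 5 GTPases, with a median log2 ratio of -2.27, and all 3 antigen processing genes, with a median of -1.98. Zbp1 had a log2 ratio of -3.21 and Ifi44 one of -3.49.

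Virgin males 5 and 3, also compared after their values were seen, divided the genes in a like way and to a smaller degree. Male 5 was higher for 21 genes, led by Rsad2 (log2 ratio 1.56), Mx1 and Isg15, and male 3 for 20, led by Ifi44 (log2 ratio -1.43). Of the 41 genes, 18 were higher in the first library of both pairs and 16 lower in both, while 7 were split, 4 higher only in lactating female 1 and 3 only in virgin male 5. How all genes divide between these pairs was not computed, and no test was made on them.

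**Figure D4:**
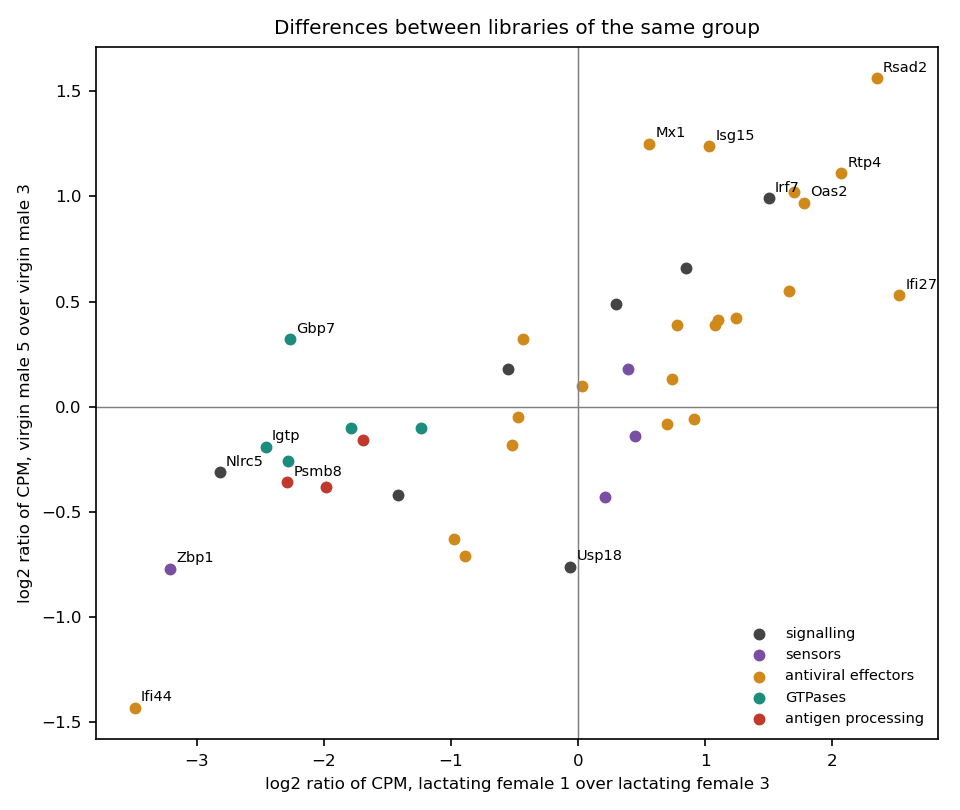
Each point is 1 of the 41 genes, coloured by role, with the log2 ratio of CPM between lactating females 1 and 3 on the horizontal axis and between virgin males 5 and 3 on the vertical axis. Rsad2, Rtp4, Oas2, Irf7 and Isg15 lie at the upper right, and Zbp1, Ifi44, Nlrc5, Psmb8 and Igtp at the lower left.

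Summed markers of T cells and of the villus tip differed between libraries too. The summed T cell markers were 3.36 to 7.10 CPM in lactating females 3, 5 and 6 and virgin females 1 and 5, and 0.586 to 1.83 CPM in the other 13 libraries. Those 5 libraries were also the 5 highest for Nlrc5, Usp18, Zbp1, Igtp, Gbp7, Psmb8 and Tap1, that is 7 of the 41 genes, and 4 of them were among the 5 highest for a further 18. Per group the summed T cell markers were 0.595 to 7.10 CPM in dams, 0.913 to 4.72 in virgin females and 0.586 to 1.76 in males. Of the 10 markers, Cd3d and Nkg7 were at 0 counts in 8 libraries each. Cd3d, Nkg7, Cd3g, Cd3e and Cd8a were at 3 counts or fewer in 18, 16, 13, 12 and 11 libraries. The T cell marker score averages all 10 markers, so it rests in part on very low counts. Gzma reached 2.86 CPM at most, a part of the 7.10 CPM of lactating female 6, and was 2.17 of the 4.98 CPM in lactating female 5. Ptprc peaked in virgin male 4 (0.373 CPM) and Cd3d in virgin female 3, while the other markers peaked among the 5 libraries with the highest sums. For how many of all genes these were the 5 highest libraries was not computed.

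The 5 genes listed here for the villus tip, where the oldest enterocytes lie, were Ada, Nt5e, Slc28a2, Apoa4 and Apob. They summed to 24400 CPM in lactating female 1 and to 3470 CPM in lactating female 3. The 5 libraries with the highest sums (9290 to 24400 CPM) were the 5 highest for 0 of the 41 genes, 4 of them were among the 5 highest for 3 genes, and fewer than 3 for 22, which included all 5 GTPases and all 3 antigen processing genes. The villus tip genes summed to 7820 CPM in virgin male 5, 5020 in virgin male 3 and 2370 in virgin male 6. The 15 cell cycle genes summed to 319 CPM in virgin female 1 and 328 in lactating female 1, and to 993 and 1010 CPM in virgin female 4 and lactating female 2, which were the lowest of their groups for 31 and 29 members. In virgin male 6, the lowest of its group for 40 members, they summed to 804 CPM, below virgin males 1 (862) and 4 (906). Across groups they were 639 ± 253, 625 ± 247 and 789 ± 92.2 CPM in lactating females, virgin females and males (SD, n = 6 each). The part of T cell RNA and of villus position in the levels of single libraries was not tested. Nor was a share of all genes computed for the counts of members by villus tip libraries.

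Upstream of these genes, interferons themselves were nearly absent from the counts. Of 20 interferon genes, 15 were at 0 counts in all 18 libraries, including all the alpha interferons listed and Ifnb1. Ifnk had 10 counts in total, Ifne 4, Ifnl2 2, Ifnl3 1 and Ifng 1. A count of 0 allows up to 3 counts, or 0.0549 to 0.0882 CPM depending on the library, and covers counting error only. Ifng, the product of T and natural killer cells, had 1 count in lactating female 6 (0.0289 CPM) and 0 in every other library.

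The receptors were all present, and 0 of 6 were called in any comparison. Ifnlr1, the specific chain of the lambda receptor, was 28.2 ± 7.66 CPM in dams, 27.4 ± 6.33 in virgin females and 21.9 ± 3.85 in males (SD, n = 6 each). Ifnar1, a chain of the type I receptor, was 42.4 ± 3.01, 48.5 ± 5.48 and 44.9 ± 1.86 CPM. Ifngr2, a chain of the gamma receptor, was 202 ± 36.6, 238 ± 49.4 and 190 ± 20.8 CPM. Thus the order of the group means differed from chain to chain, and the spreads overlapped.

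Of the 5 JAK and STAT genes outside the members, 0 were called. Of 14 adaptors and regulators of sensing, 12 were tested and 0 were called. Trim25, a ubiquitin ligase that activates RIG-I, was 170 ± 46.2, 147 ± 41.1 and 112 ± 19.3 CPM in lactating females, virgin females and males (SD, n = 6 each), and Traf3, an adaptor of several sensors, 23.4 ± 3.18, 28.9 ± 4.09 and 29.2 ± 3.06 CPM. The log2 fold change of Traf3 in lactating females over males was -0.32 (SE 0.11, edgeR adjusted p = 0.199), and the libraries overlapped.

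Among 7 inhibitors of the pathway, 1 was called and only between lactating females and males. Socs3, which is induced by STAT3 and blocks cytokine receptors, was 48.0, 17.7, 76.1, 33.9, 33.1 and 78.1 CPM in lactating females and 28.6, 32.5, 29.9, 16.5, 34.4 and 24.2 in virgin females. In virgin males it was 18.1, 17.3, 18.9, 20.6, 26.0 and 15.6 CPM. Lactating females 3 and 6 were highest, and lactating female 2 lay among the males. Socs3 rose by 1.30 on the log2 scale over males (SE 0.28, edgeR adjusted p = 0.0353, DESeq2 adjusted p = 0.000757), and against virgin females the difference was 0.79 (edgeR adjusted p = 0.569). The call against males was lost in 14 of 28 alternatives, with an adjusted p of 0.106 without virgin female 2 and virgin male 6, 0.0763 when replicate number was a block, and 0.168 with the T cell marker score (log2 difference 0.87). It was also lost without lactating female 1, 3 or 6 or virgin male 1, 2, 3, 4 or 6, and over all 18 fits that left out 1 library the adjusted p ran from 0.00289 to 0.101. Whether the difference from males exceeds that from virgin females was not tested.

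Further interferon-stimulated genes and the MHC class I machinery gave 0 calls in 33 and 11 tested genes. Sp100, a nuclear body protein, was 21.3 ± 6.14 CPM in lactating females and 40.4 ± 18.5 in virgin females (SD, n = 6 each), with 25.0 ± 5.94 in males. Its log2 fold change between the female groups was -0.92 (SE 0.29, edgeR adjusted p = 0.482). Trim30a was 11.9 ± 3.55, 15.0 ± 8.69 and 7.11 ± 2.45 CPM. B2m, the light chain of MHC class I, was 1510 ± 640, 1660 ± 891 and 993 ± 206 CPM. Over the 33 further interferon-stimulated genes the median log2 fold change was 0 in lactating over virgin females, -0.36 in males over virgin females and 0.36 in lactating females over males.

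Per kilobase of exon, the members spanned a wide range of abundance. Irf1 stood highest at 55.7 CPM per kilobase over all 18 libraries, followed by Ifi35 at 46.4, Irf7 at 41.6, Isg15 at 35 and Psmb8 at 27.5. In lactating females Irf7 and Irf1 were level, at 59.1 and 59.0 CPM per kilobase, while in males Irf7 was 24.5 and Irf1 52.2. Oas2 at 0.639, Ifi44 at 0.457 and Gbp3 at 0.355 CPM per kilobase stood lowest. Lactating over male, the largest log2 differences were Rsad2 (1.78), Oas2 (1.68), Isg15 (1.63), Usp18 and Gbp7 (1.57 each) and Nlrc5 (1.51). Of these Isg15 was abundant, while the others were scarce, from Oas2 at 0.639 to Usp18 at 2.22 and Rsad2 at 2.34 CPM per kilobase. Irf7, also abundant, had a smaller difference of 1.27.

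Counts of some members are less certain than others. The annotated spans of 19 members overlap another gene, 10 of them a protein-coding one and 15 on the opposite strand, and the sources used here do not give the strand setting of the counting. Ifit3, Oas1a and the Gbp genes have close copies in the genome, so reads may have been divided between copies. The span of Irf8 shares 20337 bases on the same strand with the model Gm20388.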

How the data were processed

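Per the labels' protocols, libraries were made from RNA of 18 samples with a directional poly(A) kit. The authors deposited raw counts of reads per Ensembl gene, 1 table per library. HISAT2 2.0.4, featureCounts of Subread 2.0.0, FastQC 0.11.5 and DESeq2 1.24.0 are listed with build GRCm38, per the submitters' processing notes. The sources used here do not give the annotation release or how multi-mapped reads were treated.

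Symbols and exon lengths came from GENCODE M21, in which 47310 of 47729 identifiers were found; promoter windows came from RefSeq. Mb21d1 was matched as Cgas by its RefSeq synonym. Depth was 34577104 to 49039300 counts per library, and no pair of libraries in a group matched within sampling noise (lowest chi-square per degree of freedom 64.4 in 45 pairs). In edgeR 4.0.16 (R 4.3.3), filterByExpr left 15572 genes, TMM factors scaled libraries, and all 18 libraries entered 1 quasi-likelihood fit of the 3 group means. P-values were adjusted by Benjamini-Hochberg over all genes tested, with calls at an adjusted p under 0.05. SEs are the fold change divided by the root of F. Scores are mean log2 CPM of a list, with a prior count of 2. DESeq2 1.42.0 was an alternative. The fit was tested on simulated data.

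The members and gene lists were chosen with earlier results of these data known. Named were, per role, the 3 members with the smallest unadjusted p, the 5 with the widest ratio of highest to lowest library, and up to 3 genes of each pathway list. Other genes were named after their values were seen. Alternatives were other size factors, DESeq2, no filter, only the groups compared, a replicate block, covariates, and libraries left out; the villus tip covariate, and DESeq2 with libraries left out, were added after seeing the data.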

Additional observations from a re-analysis of the deposited data

Results flagged for a closer look

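In virgin male 5 a set of 6 genes stood apart from the other 5 male libraries, by a gap that exceeded Dixon's 95% limit for 6 values. Irf7 was 173 CPM there and 91.9 CPM in the next male library. Irf9 was 42.1 against 30.6 CPM, Oas2 3.16 against 1.62 CPM, Oasl1 70.6 against 37.9 CPM, Mx1 8.74 against 3.67 CPM and Rsad2 11.4 against 3.99 CPM. Of the 6, 2 are signalling genes and 4 are antiviral effectors. Over 41 genes and 3 groups, 123 sets of 6 libraries were checked and 6 were flagged, all in virgin male 5. The sets come from the same libraries and are not independent, so this count cannot be set against a rate of 1 in 20. Whether chance accounts for the flags was not tested. No library of lactating or virgin females was flagged for any of the 41 genes.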

How the results depend on the processing

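Lactating and virgin females gave 0 called members under each alternative run, and so did virgin males against virgin females. Between lactating females and males, DESeq2 called 6 (Gbp7, Irf7, Oas2, Rsad2, Usp18 and Xaf1), no filter on low counts called 1 (Oas2), and the replicate block called 1 (Oas2, adjusted p = 0.045, log2 fold change 1.84). Leaving out 1 library gave 0 to 3 calls: 3 without lactating female 2 (Oas2, Parp14 and Stat2), and 1, Oas2, without lactating female 3, virgin female 4 or virgin male 5. Member medians ran from 0.62 to 0.82 in that comparison, from 0.02 to 0.36 between the female groups and from -0.81 to -0.38 between the virgin groups with 1 library left out. Without virgin female 2 and virgin male 6, Oas2 had an adjusted p of 0.174, and DESeq2, an alternative added after seeing the data, then called 1 (Oas2) in place of 6. The cause of these changes was not tested.

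For 25 genes, namely those named by role or by spread and Irf7, Zbp1, Mx1, Socs3, Sp100 and Traf3, 2100 values under 28 alternatives were compared with the reported ones. Of these, 2008 kept their direction and their side of the threshold, 64 changed sign, 14 gained a call and 14, all of Socs3, lost it. Values that changed sign were not called in either fit. Between lactating and virgin females Tap1 was 0.03 with the replicate block and 0.16 with the cell cycle score, Psmb8 0.03 with the cell cycle score, Dhx58 0 and Igtp -0.06 without virgin female 2 and virgin male 6 by edgeR and DESeq2, and with the villus tip score Xaf1 was -0.02 and Ifit1 -0.21. With the T cell marker score Psmb9 was -0.16, Gbp2 -0.45, Zbp1 -0.50 and Igtp -0.41 between the female groups, Psmb9 0.10, Psmb8 0.06, Mx1 0.03 and Traf3 -0.03 between the virgin groups, and Psmb9 -0.26, Tap1 -0.26, Psmb8 -0.62, Gbp2 -0.42, Gbp3 -0.10, Zbp1 -0.25 and Igtp -0.40 between lactating females and males. Between the virgin groups Irf7 was 0, Mx1 0.19, Isg15 0.09 and Traf3 -0.03 with the cell cycle score, and Mx1 0.01 and Traf3 -0.01 with the villus tip score. Between lactating females and males Ifi44 was 0 by DESeq2 and 0.20 with the replicate block. Leaving out 1 library, the values between the female groups ran from -0.22 to 0.28 for Tap1, -0.35 to 0.15 for Psmb8, -0.04 to 0.49 for Psmb9, -0.08 to 0.74 for Gbp2, -0.51 to 0.05 for Gbp3, -0.16 to 0.01 for Ifih1, -0.04 to 0.33 for Dhx58, -0.10 to 0.78 for Zbp1, -0.27 to 0.54 for Igtp and -0.11 to 0.53 for Ifit1. Between the virgin groups they ran from -0.45 to 0.02 for Psmb9 and -0.04 to 0.09 for Traf3, and between lactating females and males from -0.39 to 0.45 for Ifi44.

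Replicate numbers are shared by the groups in the labels but not said to pair animals. Same-numbered libraries had correlations of their deviations from -0.0631 to 0.219 for lactating and virgin females, -0.219 to 0.477 for the virgin groups and -0.174 to 0.321 for lactating females and males, and 0, 2 and 2 of 6 correlated best with their own number, so no pairing was used. Depth limits the interferon genes, whose counts were at or near 0.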
